A study of Homo sapiens with 6 samples.

Results

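Of the 147 gene symbols in the deposited tables that are named LINC or SNHG followed by a number, 31 were expressed, and these are described here. They were selected on their FPKM levels (fragments mapped to a gene, per kilobase of its transcript and relative to all mapped fragments): a symbol was taken when it reached at least 1 FPKM in at least 2 of 6 libraries. The tables list 23284 symbols, of which 12135 pass the same rule. All 12 listed SNHG symbols passed it, against 19 of 135 LINC symbols. Because levels chose the genes, their levels and on or off patterns are a description and carry no test. The rule does not look at groups, but LINC00473 and LINC00294 met it only through the high-potential libraries, so their difference from the parental libraries is not independent of the choice.

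The libraries are bulk RNA-seq of HEC-1B, an established human endometrioid carcinoma line, sorted on aldehyde dehydrogenase (ALDH), whose activity marks stem-like cells in many carcinomas. The study compared cells with and without an accelerated passage from ALDH1A1-low to ALDH1A1-high. There were 3 groups of 2 libraries, and the groups share the cell line and the protocol. The high-potential group is HEC-1B labelled high ALDH potential and ALDH-high accel. The parental accelerated group is HEC-1B labelled ALDH-high accel alone, and the high-to-low group is HEC-1B labelled ALDH-high to low. "Parental" is used here for the 4 libraries without the high ALDH potential label, since the labels have no word for them. The high-potential libraries carry the element a2-PAM in their description, which the labels do not explain, and no source used here says whether they come from 1 clone or whether replicates were separate cultures. Each p-value is thus set by how much these libraries vary, and that variation may be technical. Values by library are given in the order high-potential, parental accelerated and high-to-low, replicate 1 before replicate 2.

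SNHG stands for small nucleolar RNA host gene. These genes carry snoRNAs, the guides for chemical modification of ribosomal RNA, inside their introns; the snoRNAs are cut from the introns, and the spliced host RNA is in many cases degraded in the cytoplasm by nonsense-mediated decay. Many host genes have promoters of the type shared with ribosomal protein genes, in which transcription starts at a C followed by a run of pyrimidines (the 5′ terminal oligopyrimidine tract). LINC is a naming class for long RNAs transcribed between protein-coding genes, with no common function, and some were renamed once more was known of them.

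The start regions of 5 SNHG genes are printed because the pyrimidine tract is a known feature of host gene promoters, and because genes with and without it can be set beside the levels below. Each line runs from 15 bases before the RefSeq start to 31 after it (46 bases, 5′ to 3′ on the strand of the gene, RefSeq on GRCh38.p14). Capitals mark a C followed by at least 4 bases that are each C or T, beginning within 10 bases of the start on that strand.
SNHG4: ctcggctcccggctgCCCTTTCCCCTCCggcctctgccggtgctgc
SNHG12: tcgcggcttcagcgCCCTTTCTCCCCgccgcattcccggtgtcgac
SNHG5: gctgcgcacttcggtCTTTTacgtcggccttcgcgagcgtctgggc
SNHG8: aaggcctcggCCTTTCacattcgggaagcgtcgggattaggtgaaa
SNHG1: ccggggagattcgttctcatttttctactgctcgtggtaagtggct
The tract was 13 bases long and began at the start site in SNHG4, and it was 12 bases long and began 1 base before it in SNHG12. SNHG5 and SNHG8 had shorter tracts, and SNHG1 had none that met the definition in this window. At the first start that RefSeq lists, a tract was found in 6 of the 9 SNHG genes and in 6 of the 16 LINC genes that have an entry. The same definition is met by 32.2% of all 35116 RefSeq promoters, and 4.07% begin exactly at the start.

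The other sequence shown is the promoter of LINC00473, the gene whose level differed most between the groups. LINC00473 is known as a gene induced by cyclic AMP through the factor CREB, which binds TGACGTCA or shorter parts of it. The part searched for, called the core here, was TGACGT (on the other strand ACGTCA). Shorter parts were not searched for. The RefSeq promoter (GRCh38.p14, minus strand, chr6:165987990-165988289, 250 bases before the start to 50 after it) reads as follows, with each match to the core in capitals.
LINC00473: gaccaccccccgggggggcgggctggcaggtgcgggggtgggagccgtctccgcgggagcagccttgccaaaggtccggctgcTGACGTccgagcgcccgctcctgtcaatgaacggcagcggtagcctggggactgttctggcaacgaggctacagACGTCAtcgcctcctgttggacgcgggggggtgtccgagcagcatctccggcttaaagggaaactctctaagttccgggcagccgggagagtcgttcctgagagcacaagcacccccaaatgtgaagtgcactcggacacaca
The core occurred on each strand once, at -167 and at -93 from the start. At least 1 core is present in 7.98% of all RefSeq promoters of this length, at least 2 that do not overlap in 0.578%, and the full site in 1.85%. LINC00265 was the only other one of the 25 genes with an entry to hold the core, on both strands of 1 full site, at -198 and -196. These are matches of letters and not measured sites.

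The 6 libraries were of similar depth: relative depth, estimated from the lowest values, lay between 0.807 and 1.07, and 1 FPKM on a transcript of 1 kilobase stood for about 7.64 to 10.2 fragments. A gene near 1 FPKM therefore rests on few fragments. ALDH1A1, the sorted marker, was at 352.5 and 303.6, 26.7 and 316.9, and 28.4 and 9.445 FPKM. The library labelled parental accelerated replicate 1 thus had an ALDH1A1 level near the high-to-low group, and differences of the members named for one are given with and without it. Of the epithelial markers, KRT18, KRT8 and PAX8 were high in all libraries, EPCAM lay between 2.16 and 10.6 FPKM and the defining marker CDH1 was at most 0.0868. Leukocyte, fibroblast and endothelial marker lists held no gene at 1 FPKM, with highest values of 0.625 for LYZ, 0.414 for COL1A1 and 0.92 for CDH5, and with CD3E, DCN, COL3A1 and PECAM1 listed at 0 throughout. The 7 leukocyte markers summed to 1.30 to 1.52 FPKM in the high-potential libraries against 0.184 to 0.801 (parental accelerated) and 0.770 to 0.939 (high-to-low), with PTPRC at no more than 0.0421. The 6 endothelial markers summed to 0.292 to 1.07, 0.117 to 0.319 and 0.118 to 0.168 FPKM, and the 8 fibroblast markers to 0.414 to 0.603, 0.120 to 0.451 and 0.257 to 0.414 FPKM. Of the 6 kept epithelial markers 3 had a positive difference between high-potential and parental libraries. KRT7 was at 11.6 and 13.7 FPKM in the high-potential libraries against 1.27 to 5.27 (log2 difference 1.62, limma adjusted p = 0.096, and 0.0458 at 1.97 without parental accelerated replicate 1). With all 6 libraries KRT8 alone was called, at 49.4 and 47.1 FPKM against 90.6 to 107.7 (-1.03, adjusted p = 0.0385), and it lost the call when any 1 library was left out (adjusted p 0.0608 to 0.274). The part of these markers in the results below was not tested.

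Of the 31 genes, 22 were at 1 FPKM or more in all 6 libraries: the 12 SNHG genes and 10 of the 19 LINC genes. That is 71.0% of the 31, beside 87.4% of all 12135 genes kept by the same rule. Another 2 genes, LINC00473 and LINC00294, were on in both high-potential libraries and in no parental one. None was on in all 4 parental libraries and off in both high-potential ones. The remaining 7 were on in 2 to 5 libraries in other combinations. The SNHG genes were the more abundant class, with a median of the gene means of 26.8 FPKM against 2.23 for the LINC genes and 14.3 for all kept genes.

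**Figure D1:**
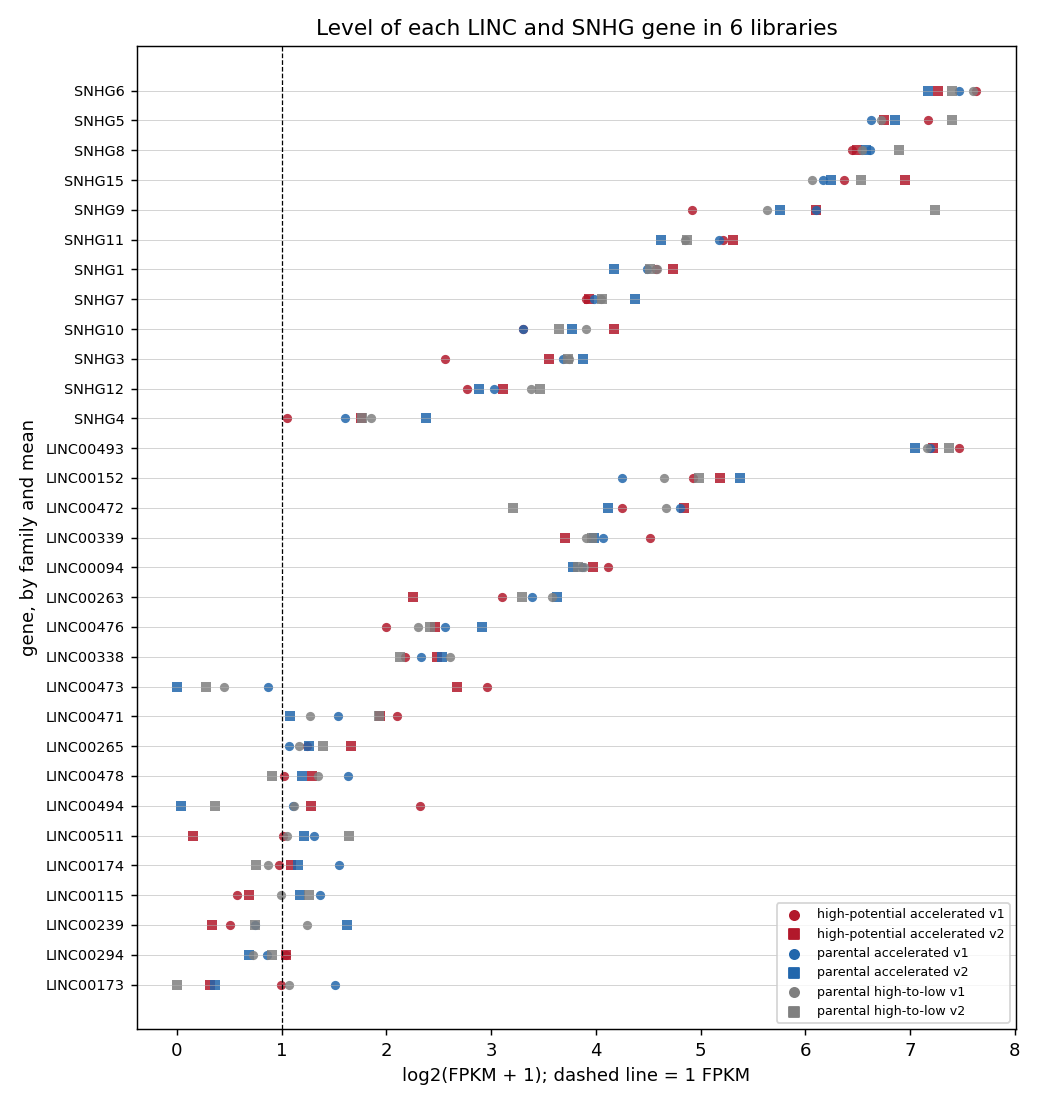
Level of each of the 31 genes in the 6 libraries, as log2(FPKM + 1) on the horizontal axis, with genes ordered by family and mean; colour gives the group, shape the replicate, and the dashed line is 1 FPKM. All 12 SNHG genes lie to the right of the line in every library, the lower LINC genes straddle it, and the red points of LINC00473 stand apart from the other 4.

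SNHG6, which hosts a snoRNA of the C/D class, was the most abundant member, at 197.3 and 152.9, 176.2 and 143.2, and 193.1 and 167.6 FPKM. SNHG5 was next among the host genes, at 143.2 and 107.1, 97.7 and 115.0, and 104.5 and 167.8 FPKM. SNHG8 followed at 86.2 and 89.5, 97.1 and 94.5, and 92.3 and 118.5 FPKM. The ranges of SNHG6 and SNHG5 over libraries overlapped, as did those of SNHG5 and SNHG8. Within each library SNHG5 was above SNHG8, though by little in parental accelerated replicate 1 (97.7 against 97.1 FPKM). SNHG6 was above SNHG5 except in high-to-low replicate 2, where they were at 167.6 and 167.8 FPKM. The order was not tested. In SNHG8 both high-potential values were below the 4 parental ones; in SNHG6 and SNHG5 the sides overlapped.

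SNHG15, a host gene known to respond to stress and to have a short-lived RNA, was at 81.9 and 122.9, 70.8 and 75.1, and 65.9 and 91.5 FPKM. SNHG11 was at 36.2 and 38.6, 35.1 and 23.7, and 27.9 and 28.2 FPKM. SNHG1, the host of a large cluster of C/D box snoRNAs, was at 22.8 and 25.6, 21.5 and 17.0, and 23.0 and 21.9 FPKM. Of these 3, only SNHG11 had both high-potential values above every parental one. SNHG7 was at 14.0 and 14.3, 14.8 and 19.7, and 15.6 and 15.6 FPKM, with both high-potential values the lowest. The SNHG genes below it ran from SNHG10 (8.86 to 17.0 FPKM) through SNHG3 (4.90 to 13.7) and SNHG12 (5.82 to 10.1) to SNHG4 (1.07 to 4.20). Whether the tract bears on the level was not tested. SNHG4 and SNHG12, with the longest tracts of the SNHG genes, were among the 3 lowest SNHG genes by mean. SNHG5 and SNHG8, also with a tract, were among the highest. The genes without one (SNHG1, SNHG3 and SNHG10) lay in the middle and lower part. SNHG6, SNHG15 and SNHG9 have no promoter entry, so their starts could not be set beside their levels.

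Among the LINC genes the most abundant was LINC00493, at 176.7 and 148.0, 145.6 and 131.7, and 141.9 and 164.7 FPKM. RefSeq now lists it as the protein-coding gene SMIM26, a small integral membrane protein. LINC00094, at 16.4 and 14.8, 13.6 and 12.8, and 13.8 and 13.3 FPKM, is likewise listed as protein-coding, under the symbol BRD3OS. It was the member of narrowest range, with 1.28-fold between its highest and lowest library, and both high-potential values were above the 4 parental ones. The remaining 29 are noncoding in RefSeq, 5 of them under another name: LINC00152 as CYTOR, LINC00263 as OLMALINC, LINC00338 as SNHG20, LINC00476 as ERCC6L2-AS1 and LINC00478 as MIR99AHG. LINC00338 is therefore a further snoRNA host by its newer name, at 3.39 to 5.10 FPKM.

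LINC00152, a cytoplasmic RNA often studied in carcinomas, was at 29.4 and 35.4, 18.0 and 40.7, and 24.2 and 30.6 FPKM. It has a near-identical copy elsewhere in the genome, so its value is uncertain where reads fit both. LINC00472 was at 18.0 and 27.6, 27.0 and 16.4, and 24.5 and 8.24 FPKM, and LINC00339 at 21.9 and 12.1, 15.8 and 14.8, and 14.0 and 14.6 FPKM. In all 3 the high-potential values overlapped with the parental ones. Apart from these 5 most abundant LINC genes, the means were all under 10 FPKM, and 11 of the 19 were under 3.

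LINC00473 was the only gene of the 31 that was called in any comparison, and it entered the selection through the libraries in which it is high. It was at 6.80 and 5.37 FPKM in the high-potential libraries, against 0.826 and 0 (parental accelerated) and 0.368 and 0.212 (high-to-low). Both high-potential libraries were above every parental one, with means of 6.09 ± 1.02 (SD, n = 2) against 0.352 ± 0.351 (SD, n = 4), a ratio of 17.3. On the log2(FPKM + 1) scale, which understates differences of low genes, the difference from the mean of the parental groups was 2.42 with a standard error of 0.298 (limma, Benjamini-Hochberg adjusted p = 0.0257). This was 1 member called of 31 in a comparison in which 2.3% of all kept genes were called, 0.931% as higher and 1.37% as lower, so the members' share of 3.23% rests on 1 gene. Since no parental library reached 1 FPKM, LINC00473 could only be a member, and be kept for the fit, by being high in the high-potential libraries; its p is a description of these libraries and not independent support for the difference. With no filter on low values, where every gene above 0 FPKM in any library entered, the adjusted p was 0.041.

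The call of LINC00473 rested on few libraries. Without high-potential replicate 1 or replicate 2 its limma adjusted p was 0.154 and 0.193, and without high-to-low replicate 1 or 2 it was 0.0781 and 0.0888, while the log2 difference stayed between 2.27 and 2.56. Without the library labelled parental accelerated replicate 1 the difference was 2.63 (adjusted p = 0.0197). Against the parental accelerated group alone, with which the high-potential group shares the accelerated label, the difference was 2.38 (standard error 0.344) with an adjusted p of 0.0585, and 2.82 (adjusted p = 0.0577) without that library. With the replicate number as a block it was called there too (adjusted p = 0.0173). The labels' descriptions end in a number, and its start divides the libraries into sets of 4 and 2. Within the set of 4 the high-potential value of 6.80 stood against 0.826, 0.368 and 0.212 FPKM, and within the other it was 5.37 against 0.

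The gene lies within PDE10A, a phosphodiesterase gene, in RefSeq, so its value can include reads of that gene. PDE10A itself was at 0.706 and 0.226 FPKM in the high-potential libraries and was listed at 0 in all 4 parental ones, lower than LINC00473 in each high-potential library. The coding genes on either side, C6orf118 and T (TBXT), reached at most 0.167 FPKM. In bulk libraries, fewer cells that express a gene and less RNA per cell cannot be told apart, which holds for every difference given here.

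The other member on in the high-potential libraries alone, LINC00294, differed little. It was at 1.056 and 1.055 FPKM there and at 0.820 and 0.613, and 0.656 and 0.879 FPKM in the parental groups. Its class thus turned on the threshold, and the limma log2 difference was 0.24 (adjusted p = 0.568). At a threshold of 0.5 FPKM no gene was on in the high-potential libraries only, and at 2 FPKM LINC00473 alone was. LINC00294 was also the member nearest to the limit of the selection, with a second highest value of 1.055 FPKM, followed by LINC00173 (1.10), LINC00174 (1.23) and LINC00239 (1.37). Just outside were LINC00086 (0.895), LINC00235 (0.850), LINC00240 (0.827) and LINC00261 (0.810).

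LINC00494 had the next greatest difference. It was at 4.001 and 1.43, 1.15 and 0.0295, and 1.18 and 0.287 FPKM. The groups did not overlap, but high-potential replicate 2 was close to the higher value of each parental group. The log2 difference from the parental groups was 1.14 with a standard error of 0.452 and did not pass the test (limma adjusted p = 0.232); without parental accelerated replicate 1 it was 1.41 (adjusted p = 0.185), and without high-potential replicate 1 it fell to 0.62 (adjusted p = 0.634). With the replicate number as a block, in which each replicate 1 is set against the others of that number, it was called (adjusted p = 0.0254), and also against the parental accelerated group (1.23, adjusted p = 0.0464 with the block and 0.362 without it). Without a block that difference was 1.76 without parental accelerated replicate 1, 0.69 without replicate 2 of that group and 0.71 without high-potential replicate 1.

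Both coding genes that flank LINC00494 in RefSeq were called higher in the high-potential libraries, although SULF2 passed the filter on low values only through them. SULF2, which encodes an enzyme that removes sulfate groups from heparan sulfate outside the cell, was at 8.32 and 9.19 FPKM against 0.106, 0.379, 0 and 0.0527 (log2 difference 3.11, standard error 0.21, limma adjusted p = 0.00323, and 0.00773 with no filter). PREX1, which encodes an activator of the GTPase Rac, was at 3.04 and 3.42 FPKM against 0.836, 0.467, 1.13 and 1.14 (adjusted p = 0.0498, log2 difference 1.18). That call was lost with no filter (limma adjusted p = 0.0563), a filter on the mean (0.0715) and a pseudocount of 0.5 (0.0563) or 0.1 (0.0739). Median ratio scaling (0.0509) and the description number term (0.0608) lost it too. It was kept with quantile normalization (0.0463), no variance trend (0.0361) and the replicate block (0.025). PREX1 lost the call when any 1 library was left out (adjusted p 0.0722 to 0.308), and SULF2 when high-potential replicate 2 was (0.0699). Without parental accelerated replicate 1 the adjusted p was 0.0101 for SULF2 and 0.0808 for PREX1. Neither varied between the high-potential libraries as LINC00494 did. These neighbours were looked at because LINC00494 was named for its difference.

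**Figure D2:**
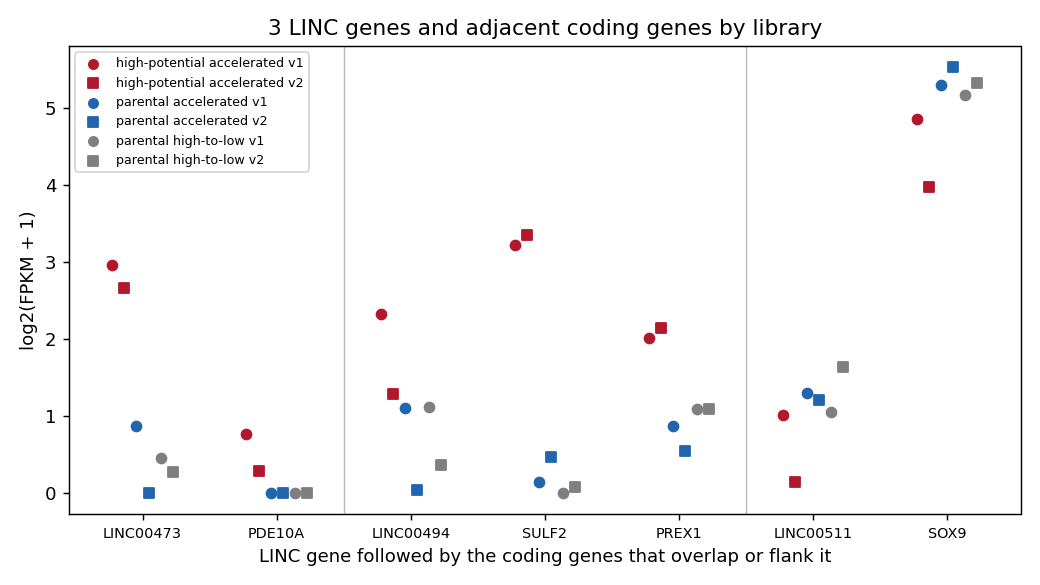
Level of 3 LINC genes and of the coding genes that overlap or flank them, as log2(FPKM + 1) on the vertical axis; each point is 1 library, colour gives the group and shape the replicate. SULF2 and PREX1 are higher in both red libraries, SOX9 is lower there, and PDE10A is low throughout.

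On the lower side, LINC00263 had the most negative difference. It was at 7.57 and 3.76, 9.52 and 11.4, and 10.96 and 8.85 FPKM, so that the groups did not overlap. The log2 difference was -0.80 with a standard error of 0.278 and did not pass (limma adjusted p = 0.184, and 0.245 at -0.86 without parental accelerated replicate 1). It rested mainly on high-potential replicate 2: without that library it was -0.38 (adjusted p = 0.647), and without replicate 1 it was -1.23 (adjusted p = 0.19). Its flanking gene SCD, which encodes stearoyl-CoA desaturase, was at 117.6 and 157.0 FPKM against 116.1 to 201.1, and WNT8B on the other side was at most 0.328 FPKM.

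LINC00511 was at 1.02 and 0.110 FPKM in the high-potential libraries against 1.47, 1.31, 1.07 and 2.13, with a log2 difference of -0.72 (limma adjusted p = 0.28). High-potential replicate 1 lay just under the lowest parental value, so the difference rested mostly on replicate 2: it was -0.29 without that library, -1.15 without high-potential replicate 1 and -0.70 without parental accelerated replicate 1. It is flanked by SOX9, a transcription factor of epithelial progenitors, which was at 28.1 and 14.7 FPKM against 35.0 to 45.3 (log2 difference -0.91, adjusted p = 0.136). In SOX9 too replicate 2 was the lower of the high-potential libraries, and without it the difference was -0.47. SLC39A11 on the other side was at 18.1 and 12.2 FPKM against 14.9 to 26.5.

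SNHG3, the host of a pair of abundant H/ACA box snoRNAs, was at 4.90 and 10.7, 11.8 and 13.7, and 12.4 and 12.3 FPKM. The log2 difference was -0.71 with a standard error of 0.293 (limma adjusted p = 0.253, and 0.315 without parental accelerated replicate 1), and it was set mainly by high-potential replicate 1. Without that library it was -0.21, and without high-potential replicate 2 it was -1.20. SNHG3 overlaps RCC1 in RefSeq, whose values were 34.4 and 72.4, 45.5 and 84.6, and 46.6 and 82.3 FPKM. RCC1, a chromatin-bound exchange factor for Ran, was higher in the second library of each group, and its reads cannot be told from those of SNHG3 where the genes overlap.

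LINC00471 was at 3.30 and 2.83 FPKM in the high-potential libraries against 1.91 and 1.12, and 1.42 and 2.81 in the parental groups, with a log2 difference of 0.57 (limma adjusted p = 0.313), and 0.68 (adjusted p = 0.297) without parental accelerated replicate 1. High-to-low replicate 2 was close to the lower high-potential value. It is flanked by NCL, which encodes nucleolin and hosts snoRNAs itself, at 272.6 and 452.8 FPKM against 229.0 to 412.0, with overlap between the groups.

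Over all 31 genes the comparison of high-potential with parental libraries had 16 positive and 15 negative differences, with a median log2 difference of 0.04 beside 0.0009 over all kept genes. The libraries did not overlap between the sides in 13 members, 6 higher and 7 lower, which is 41.9% beside 32.8% of all kept genes (15.3% higher and 17.5% lower). An unadjusted p under 0.05 was reached by 4 members, or 12.9%, beside 19.9% of all kept genes; 2 were higher, beside 8.11%, and 2 lower, beside 11.8%. For 18 members, among them 9 of the 12 SNHG genes, the 95% interval of the log2 difference lay within 1 unit of 0 on either side. The SNHG genes with wider intervals were SNHG3, SNHG4 and SNHG9, with lower bounds of -1.42, -1.26 and -1.91.

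**Figure D3:**
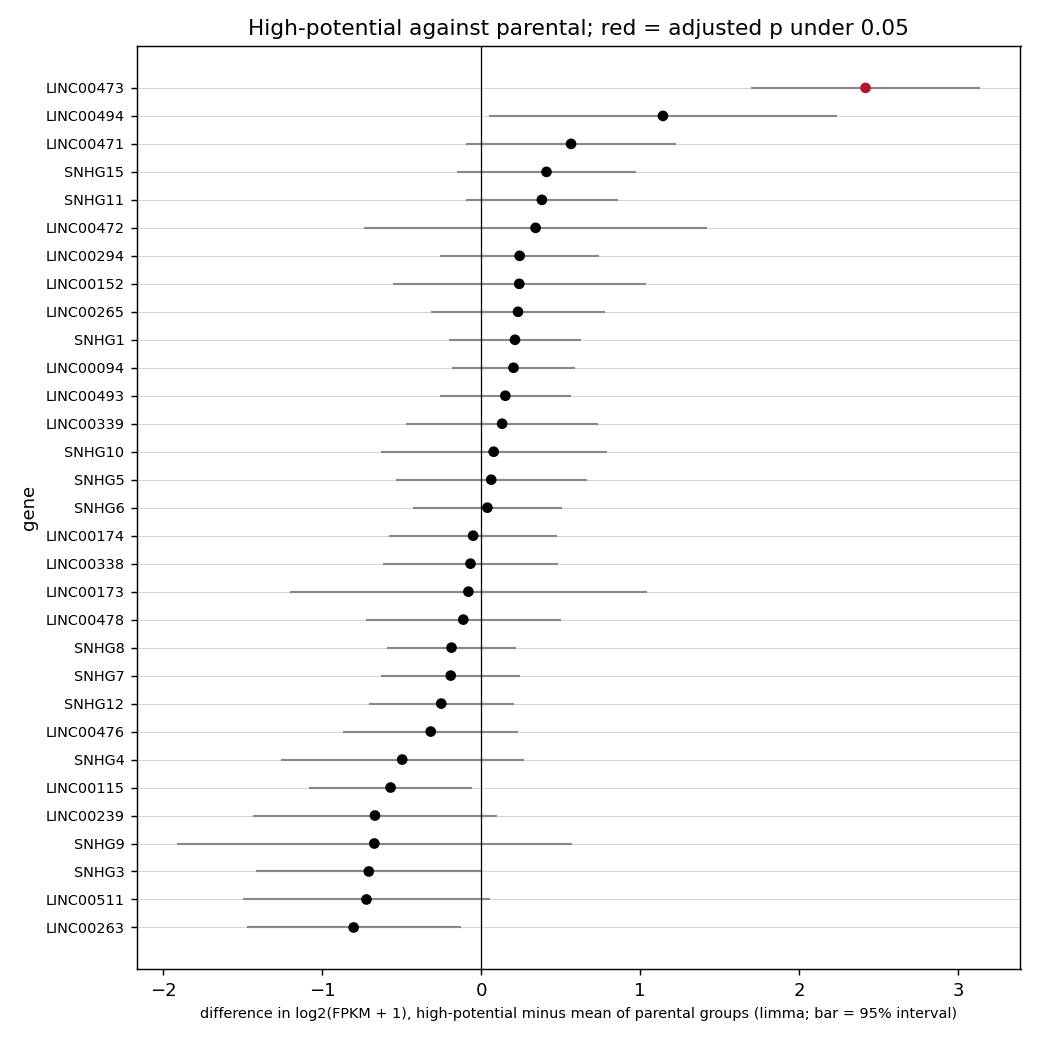
Log2 difference on the log2(FPKM + 1) scale between the high-potential libraries and the mean of the parental groups for each of the 31 genes, with the 95% interval from limma as bars; red marks an adjusted p under 0.05. LINC00473 alone is red at 2.42; the unadjusted intervals of LINC00494, LINC00115 and LINC00263 exclude 0 as well, and the others include it.

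Against the parental accelerated group alone, no member was called, in a comparison that called 0.494% of all kept genes, 0.288% as higher and 0.206% as lower. At an unadjusted p under 0.05 there were 3 members (9.68%, beside 14.3% of all kept genes), 1 higher (beside 5.69%) and 2 lower (beside 8.63%). That count was 6 without parental accelerated replicate 1, 2 without replicate 2 of that group and 1 without either high-to-low library. The libraries did not overlap in 18 members, 9 in each direction, which is 58.1% beside 43.4% (21.1% higher and 22.3% lower). The median log2 difference was 0.08 beside 0.005. The genes with the greatest differences were those named above, with LINC00239 in the place of LINC00511. Without parental accelerated replicate 1, LINC00471 moved from 0.71 to 0.94, LINC00263 from -0.84 to -0.96 and SNHG3 from -0.73 to -0.83. LINC00263 was -0.41 without high-potential replicate 2, and SNHG3 was -0.23 without high-potential replicate 1. LINC00239 was at 0.419 and 0.260 FPKM in the high-potential libraries and at 0.676 and 2.07 in the parental accelerated ones, with 1.37 and 0.672 in the high-to-low group. Its log2 difference of -0.76 did not pass (limma adjusted p = 0.418) and rested on parental accelerated replicate 2: it was -0.33 (adjusted p = 0.702) without that library and -1.20 (adjusted p = 0.323) without replicate 1. This comparison and the last one share the high-potential libraries and the parental accelerated ones, so they are not independent of each other.

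Between the parental accelerated and high-to-low groups no member was called, and none reached an unadjusted p under 0.05, while limma called 0.0165% of all kept genes and 0.972% reached an unadjusted p under 0.05, 0.429% as higher and 0.544% as lower. Leaving out high-to-low replicate 1 raised that count to 2, and leaving out accelerated replicate 2 raised it to 1. The adjusted p was 1 for every member, and in none of 16 alternatives to the fit was any member called. The libraries did not overlap in 5 members (16.1%, beside 24.1% of all kept genes), of which 3 were higher and 2 lower in the accelerated group, beside 11.4% and 12.7%. LINC00174 was at 1.92 and 1.23 FPKM in the accelerated libraries against 0.823 and 0.692 (log2 difference 0.54, standard error 0.253), and the difference was 0.35 without accelerated replicate 1 and 0.74 without replicate 2. SNHG12 was at 7.18 and 6.40 FPKM against 9.41 and 10.1 (-0.46, standard error 0.217), and -0.54 and -0.39 without accelerated replicate 1 and 2.

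The 3 others differed less. LINC00476 was at 4.88 and 6.54 FPKM against 3.94 and 4.33 (0.38), LINC00339 at the values given above (0.09) and SNHG1 likewise (-0.22). Without accelerated replicate 1 these became 0.56, 0.05 and -0.38, and without accelerated replicate 2 they became 0.20, 0.14 and -0.06. LINC00473, which separated the high-potential libraries, had a log2 difference of 0.07 here, with a 95% interval from -0.76 to 0.90. For 20 of the 31 members the interval of this comparison lay within 1 unit of 0, and for the other 11 it reached further.

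Replicates of a group differed by a median of 0.298 on the log2(FPKM + 1) scale over the members, beside 0.286 over all kept genes. By group the members' median was 0.341 in the high-potential, 0.318 in the parental accelerated and 0.257 in the high-to-low libraries, beside 0.268, 0.312 and 0.277 for all kept genes. A difference above 1 occurred in 8 of 93 pairs of values (8.6%, beside 5.52%), and these fell on 5 genes. SNHG9, a short host gene next to RPS2, varied most, at 29.3 and 67.5, 67.6 and 53.0, and 48.8 and 150.1 FPKM. RPS2, a ribosomal protein gene, was at 171.7 and 177.9, 250.5 and 232.5, and 267.5 and 321.3 FPKM and did not vary in that way. LINC00173 followed at 0.997 and 0.243, 1.85 and 0.288, and 1.10 and 0 FPKM, in which replicate 1 was the higher one in each group.

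LINC00494 and LINC00472 came next in summed replicate difference. In LINC00494 replicate 1 was again the higher one in each group, while in LINC00472 high-potential replicate 1 was the lower one and the other 2 groups went the opposite way. LINC00152 exceeded 1 in the parental accelerated pair. At the other end, LINC00094, LINC00294, SNHG7 and SNHG8 had the smallest summed differences. The range from the lowest to the highest library was no more than 2-fold in 9 of 12 SNHG genes and 6 of 19 LINC genes, together 48.4% beside 58.3% of all kept genes.

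**Figure D4:**
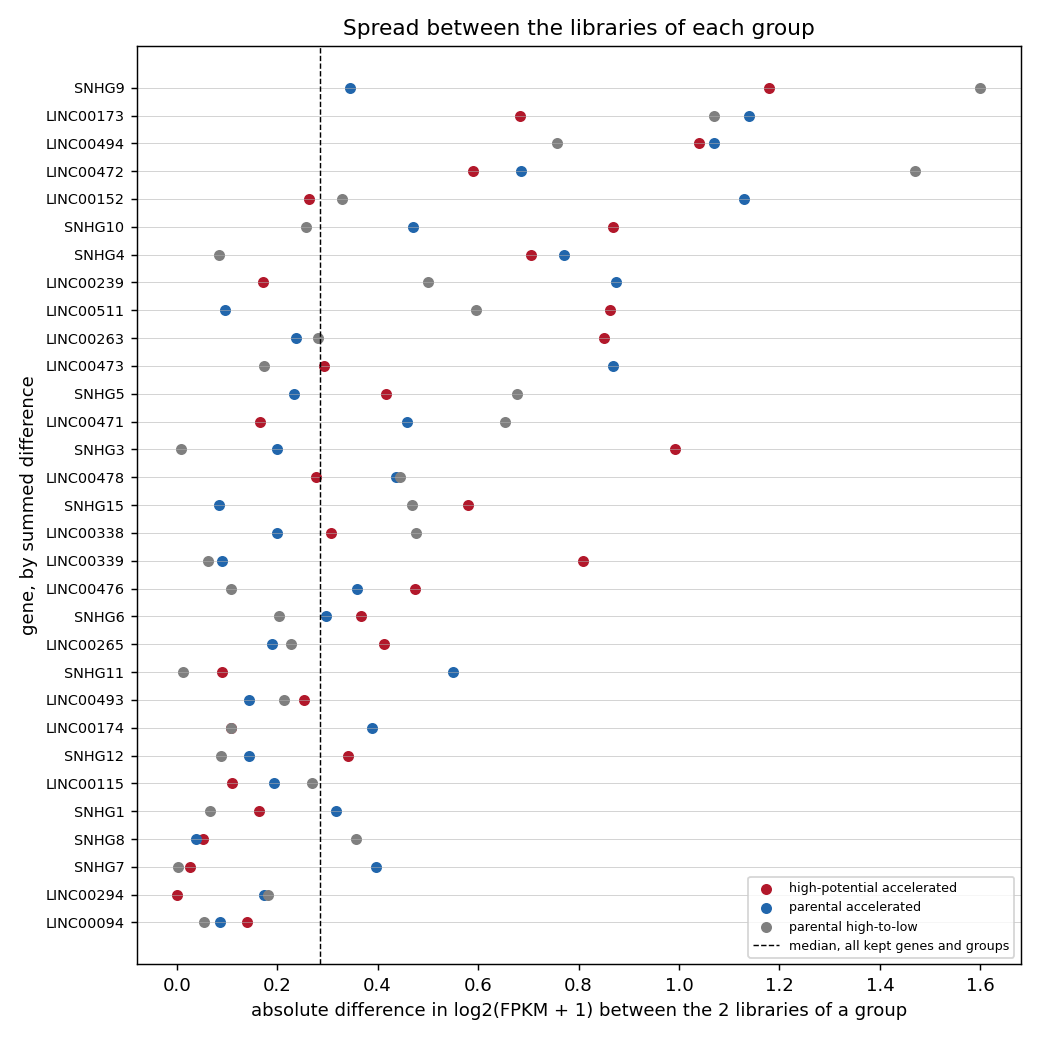
Absolute difference in log2(FPKM + 1) between the 2 libraries of each group for each of the 31 genes, ordered by the sum over groups; the dashed line is the median of all kept genes over the groups. SNHG9 reaches 1.60 in the high-to-low pair and 1.18 in the high-potential pair, while LINC00094 and SNHG8 stay near or under the line.

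By library, 27, 27, 28, 27, 27 and 24 of the 31 members were at 1 FPKM or more in high-potential replicates 1 and 2, parental accelerated replicates 1 and 2 and high-to-low replicates 1 and 2. Their summed level lay between 827.9 and 1057 FPKM, or 0.149 to 0.185% of all FPKM. High-to-low replicate 2 had both the fewest members on and the highest sum, of which SNHG genes held 797.5 FPKM. The 5 most abundant members made up 67.2 to 73.7% of the sum in each library. The 7 members on in other combinations divided as follows: LINC00478 and LINC00511 were on in 5 libraries, LINC00494 in 4, LINC00115 and LINC00174 in 3, and LINC00173 and LINC00239 in 2. LINC00115, at 0.492 and 0.610 FPKM in the high-potential libraries and 1.59, 1.26, 0.992 and 1.40 in the parental ones, came nearest to a pattern of parental libraries only.

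The 116 LINC symbols outside the selection were mostly silent: 73 were listed at 0 in all 6 libraries, 37 were under 1 FPKM in every library, and 6 reached 1 FPKM in a single library. Of those 6, LINC00085, LINC00467, LINC00515 and LINC00525 did so in high-potential replicate 2, and LINC00086 and LINC00460 in a high-to-low library. None of the 6 was above 1.40 FPKM. Among the 31 members, 9 overlap a coding gene in RefSeq (SNHG3, SNHG4, SNHG6, SNHG7 and SNHG12, and LINC00094, LINC00338, LINC00473 and LINC00476), and their values can include reads of that gene.

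The genes that act on host RNAs and their snoRNAs did not pass the test in any of the 3 comparisons. Of all kept genes 2.3% were called against all parental libraries. The share was 0.494% against the parental accelerated group and 0.0165% between the parental groups. Lists this short would hold few calls or none at these shares, so their lack of calls does not set them apart. Of the 4 core proteins of C/D box particles, including NHP2L1 and NOP56, and the 4 of H/ACA box particles, including NOP10 and NHP2, none was called in either direction. The same held for 8 assembly factors of these particles, with RUVBL2 and RUVBL1 the most abundant, for 10 factors of nonsense-mediated decay, with SMG5 and SMG8 the most abundant, and for 5 proteins of the exon junction complex, with EIF4A3 and MAGOH. The summed level of the decay factors lay between 123.7 and 137.8 FPKM over the 6 libraries, and 5 of the 10 had a positive difference between high-potential and parental libraries. FBL, the methyltransferase of C/D box particles, was at 51.3 and 62.2 FPKM in the high-potential libraries against 85.4 to 103.1 (log2 difference -0.66, limma adjusted p = 0.103), a gene chosen for mention after its values were seen.

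Other host genes did not pass either, and the same shares of all kept genes (2.3%, 0.494% and 0.0165%) apply to the lists that follow. Of the noncoding hosts outside the SNHG name, GAS5 lay between 57.1 and 93.9 FPKM, DANCR between 21.1 and 46.9 and EPB41L4A-AS1 between 3.94 and 10.9, levels like those of the SNHG genes, and none was called. Of 21 coding host genes, with HSPA8 and GNB2L1 the most abundant, 11 had a positive difference between high-potential and parental libraries and none was called. Of the other well-known long noncoding RNAs, 16 of 24 listed were kept, with MALAT1 (112.9 to 464.8 FPKM) and CRNDE (60.6 to 138.2) the most abundant, and none was called. The snoRNAs encoded in SNHG introns are short RNAs: 26 were listed, of which 14 were at 0 in all 6 libraries, and 10 were kept with none called. The most abundant kept ones were SNORA61, at 0 and 245.1, 132.8 and 135.9, and 207.2 and 132.2 FPKM, and SNORA9, at 87.9 and 245.2, 70.9 and 0, and 143.3 and 188.0 FPKM, so that each had a library at 0.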

How the data were processed

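Per the submitters' processing notes, the authors used TopHat2 2.0.13, Cuffnorm 2.2.1 and hg19; no source used here names the annotation. The authors deposited 1 FPKM value per gene symbol and library; the kits, per the labels' protocols, do not record strand. A gene was kept (12135 were) if 2 libraries or more had 1 FPKM or more. Values were set to log2(FPKM + 1) with a pseudocount of 1, and limma (version 3.58.1, R 4.3.3) fitted 1 model with a variance trend to the 6 libraries, leaving 3 residual degrees of freedom. Adjusted p-values are Benjamini-Hochberg over 12135 genes, two-sided, called under 0.05. No count model was used on FPKM, and depth was estimated from genes under 0.3 FPKM.

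Simulated data held 12135 genes, with changes added in either direction on the log2(FPKM + 1) scale. No floor was set at 0 FPKM, so the changes included falls that low genes cannot show. In these data the comparison of high-potential with parental libraries recovered 21.9% of genes with an added log2 change of 1. It recovered 69.6% of those with 2 and 93.5% of those with 4. For high-potential against parental accelerated these were 10.9, 63.5 and 93.2%, and for parental accelerated against high-to-low 12.2, 59.5 and 91.5%.

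Members, gene lists and tests were chosen with earlier results of these data known. Named are the 5 LINC and 8 SNHG genes of highest mean, those on in 1 set of libraries only or called, the 3 greatest differences without overlap in each direction and comparison, the 4 of widest replicate spread, those listed as protein-coding and those near the threshold; of each gene list, the 2 most abundant and any called. RefSeq (GRCh38.p14, another build) gave names, gene types, gene order and promoters: 24 members matched by symbol and 7 by an older symbol. Alternatives changed the pseudocount, filter, scaling, variance model, libraries in the fit, replicate block and description number.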

Additional observations from a re-analysis of the deposited data

How the results depend on the processing

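LINC00473 and the other members named for their difference without overlap kept their direction in all alternatives to the comparison they were named for. They were chosen because the sides did not overlap, so leaving out a library or changing the pseudocount or filter could not reverse them. Their kept direction is therefore no support for the differences. Over all 31 members, 10 changed sign at least once against all parental libraries, 9 against the parental accelerated group and 22 between the parental groups. LINC00152, LINC00173, LINC00338, LINC00472 and SNHG10 did so in every comparison. LINC00339, SNHG5, SNHG6 and SNHG9 each did so in 2 of the comparisons. Against all parental libraries 1 member was called; the count was 0 with a pseudocount of 0.1 (LINC00473 at 4.17, limma adjusted p = 0.0798), 2 with the replicate block, and 0 to 1 when single libraries were left out; its adjusted p ranged from 0.00799 to 0.193. Against the parental accelerated group the count was 0, and it was 1 with quantile normalization (adjusted p = 0.0322), without the variance trend (0.0459) or with a term for the description number (0.0272), and 2 with the replicate block. The block changed no call between the parental groups (0 members). The labels share replicate numbers 1 and 2, and deviations of the same number correlated at 0.158 to 0.281 over 12135 genes, but with 2 numbers only this does not show that they pair samples. The count of genes on in the high-potential libraries only was 2, and 0 at 0.5 FPKM, 1 at 2 FPKM and 0 to 2 with single libraries left out, where 0 follows from having 1 high-potential library left. The count on in parental libraries only was 0, and 2 at 0.5 FPKM and 0 to 1 with libraries left out (1 without high-potential replicate 1 or without high-to-low replicate 1). The replicate spread of the members was 0.298, and 0.368 with a pseudocount of 0.1. Members numbered 45 at 0.5 FPKM and 22 at 2 FPKM, and 29 to 31 with libraries left out. A fit of only the compared groups is the same as the main one for all parental libraries, since it holds all 6. With 2 libraries a group, most differences of 1 on the log2 scale would be missed.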

Other observations

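Outside the LINC and SNHG names, other noncoding RNAs had values that stood apart in 1 or both high-potential libraries; they were picked after their values were seen. H19 stood apart in both, and it passed the filter on low values only through them. KCNQ1OT1 was also higher in both, at 0.374 and 1.215 FPKM against 0.209 to 0.303 in the parental libraries, but it did not pass that filter. H19, an imprinted RNA of fetal tissues, was at 1.30 and 4.94 FPKM in the high-potential libraries, was listed at 0 in 3 parental libraries and was at 0.0463 in high-to-low replicate 2. The log2 difference of H19 from the parental groups was 1.87 and did not pass the test (limma adjusted p = 0.0665). The adjusted p was 0.103 with no filter on low values and 0.0281 with the replicate number as a block. Against the parental accelerated group it was 0.146. UCA1, an RNA named for urothelial cancer, was at 64.4 FPKM in high-potential replicate 2, at 1.06 in replicate 1 and at 0.211 to 1.62 in the parental libraries. MIR17HG, the host of a cluster of cell-cycle microRNAs, was at 2.035 FPKM in high-potential replicate 2 and at most 0.277 in the other 5 libraries. SNORD28, a snoRNA from an intron of SNHG1, was at 12360 FPKM in high-potential replicate 2 and listed at 0 in the other 5. How many fragments lay behind this value on so short an RNA was not examined. SNORA17, another short RNA, was at 55.1 FPKM in high-to-low replicate 1 and listed at 0 in the other 5. The SNORD28 value was seen in 1 library only, and it is not read here as abundant expression.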
